A study of Homo sapiens with 9 samples.

Results

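A set of 10 early neuron genes was followed by RNA sequencing in 9 libraries of HUES9, a human embryonic stem cell line, at day 1 and day 13 of differentiation. The genes are NEUROG2, NEUROD1, ELAVL3, ELAVL4, DCX, STMN2, TUBB3, INA, GAP43 and ISLR2, which were chosen by symbol, 10 of the 27730 gene symbols in the deposited count table. The cells came from passages P44-46, had been kept on mouse embryonic fibroblast feeders, and were differentiated as centrifuged embryoid bodies that were later plated on Matrigel. The 3 groups, each with 3 replicates from what the labels call independent experiments, were day 1 cultures that received no compound, day 13 cultures given 10 µM RP22, and day 13 cultures given 10 µM AA147. The labels call AA147 an ATF6 activator and RP22 an inactive analogue of it, ATF6 being a sensor of misfolded protein in the endoplasmic reticulum that turns into a transcription factor. Each group is thus the same line, and the groups differ in day, in compound or in both. Cultures given only the solvent are not analysed here. Reads of the mouse feeder cells were not separated.

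A new neuron is made when a progenitor leaves the cell cycle under proneural factors of the basic helix-loop-helix class. NEUROG2 acts early in that step and NEUROD1 follows it, both by binding the E-box, a short DNA motif. The young neuron then makes RNA-binding proteins of the Hu class (ELAVL3, ELAVL4) that regulate neuronal transcripts, microtubule proteins for migration and neurite growth (DCX, STMN2, TUBB3), the intermediate filament alpha-internexin (INA), and proteins of the growing axon and its membrane (GAP43, ISLR2). Such genes are commonly used to recognise young neurons in differentiating stem cell cultures, although TUBB3 and INA are also made at lower levels outside neurons.

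The promoters of these genes show where proneural factors could bind, so 3 are printed here, with every E-box (CANNTG, read the same on both strands) in capitals. INA and TUBB3 are shown because they kept reads with AA147, and ELAVL4 because it kept 1 read, a choice made after their values were seen. All 3 stretches lie just upstream of a transcription start on the plus strand, from RefSeq on GRCh38.p14, and hold no exon of the GENCODE annotation. The expression tables were made on GRCh37.p13, so the coordinates apply to the sequences alone.
INA, only start listed, chr10:103276888-103277137: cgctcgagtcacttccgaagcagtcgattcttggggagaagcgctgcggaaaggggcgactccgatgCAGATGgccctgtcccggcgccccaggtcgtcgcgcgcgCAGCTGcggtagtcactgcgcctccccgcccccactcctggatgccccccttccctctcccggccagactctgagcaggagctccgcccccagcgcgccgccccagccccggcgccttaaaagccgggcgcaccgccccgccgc
TUBB3, 1 of 2 starts, chr16:89923092-89923278: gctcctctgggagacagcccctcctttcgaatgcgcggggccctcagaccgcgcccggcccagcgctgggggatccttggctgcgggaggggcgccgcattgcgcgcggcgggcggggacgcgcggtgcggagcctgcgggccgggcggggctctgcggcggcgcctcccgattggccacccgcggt
ELAVL4, 1 of 7 starts, chr1:50108670-50108919: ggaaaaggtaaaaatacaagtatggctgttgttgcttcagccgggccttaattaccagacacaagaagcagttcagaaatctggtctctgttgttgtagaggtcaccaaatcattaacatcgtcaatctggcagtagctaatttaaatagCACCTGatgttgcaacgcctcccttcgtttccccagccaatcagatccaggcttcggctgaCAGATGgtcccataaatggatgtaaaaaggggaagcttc

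RefSeq windows were found for 8 of the 10 genes, with 17 starts in all. Within 250 bases upstream, an E-box was found in 8 of the 17 windows (47.1%), against 61.8% of 35116 windows of that length across the genome. These windows belonged to 5 of the 8 genes, namely DCX, ELAVL4, GAP43, INA and ISLR2. INA carried 2 E-boxes, at 183 and 144 bases before the start, and the ELAVL4 start shown carried 2, at 100 and 39 bases before it. The TUBB3 stretch held none. The E-box CAGCTG was in 3 windows (17.6% against 14% of all) and CAGATG in 2 (11.8% against 12.2%). The endoplasmic reticulum stress element bound by ATF6, a CCAAT followed at a fixed distance by CCACG and searched on both strands, was in 0 of the 17 windows, against 0.074% of all windows. Its first part alone, CCAAT, was in 7 (41.2% against 32%), including the TUBB3 and ELAVL4 windows shown. A match or its lack is a description of these letters and says nothing of binding.

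Library totals ranged from 9223027 to 10118258 reads. At day 1 the cells carried the pluripotency transcripts POU5F1 (13295 reads over the 3 libraries), SOX2 (21546), LIN28A (53200) and NANOG (756). The deposited RPKM, which scale reads by the length of a gene and the size of a library, allow levels of different genes to be compared, while CPM here are reads as a share of the library total, without the TMM scaling of the tests. Single genes differed in replicate 1 of the other groups, such as TFAP2A at day 1 (376, 13 and 33 reads) and L1CAM with AA147 (719, 388 and 381). In summed marker levels, RP22 replicate 1 stood apart from the other RP22 libraries. Its summed level of 8 smooth muscle and mesenchyme markers was 21497 CPM, against 7481 and 7927 CPM in RP22 replicates 2 and 3, and 27570 to 36585 CPM with AA147. Its summed level of 10 neural progenitor markers was 873 CPM against 1401 and 1371 CPM, and that of 10 neural crest and glia markers was 1159 CPM against 656 and 676 CPM. The calls of the 10 genes, and the counts over gene lists between the compounds, are therefore also given without this library. List counts were not redone without any other library. In these bulk samples, fewer neurons and less of a transcript per neuron cannot be told apart.

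The 10 genes together took 0.0253 to 0.0271% of all reads at day 1, 0.110 to 0.143% with RP22 and 0.0368 to 0.0389% with AA147. Which genes supplied those reads differed between groups. TUBB3 supplied 63.3% of them at day 1, 28.6% with RP22 and 93% with AA147. The other 9 genes summed to 975, 916 and 895 reads in the day 1 libraries, to 7839, 9362 and 10101 with RP22, and to 255, 256 and 244 with AA147. Without TUBB3, therefore, every AA147 library held fewer reads of these genes than any day 1 library. GAP43 alone held 1474 of the 2786 day 1 reads of those 9 genes. By CPM, every AA147 library lay below every day 1 library for 5 genes (DCX, STMN2, ELAVL3, ELAVL4 and GAP43). These CPM leave out TMM scaling, with which the AA147 and day 1 libraries overlap for STMN2. The plot of all 10 genes by library shows the CPM gene by gene.

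**Figure D1:**
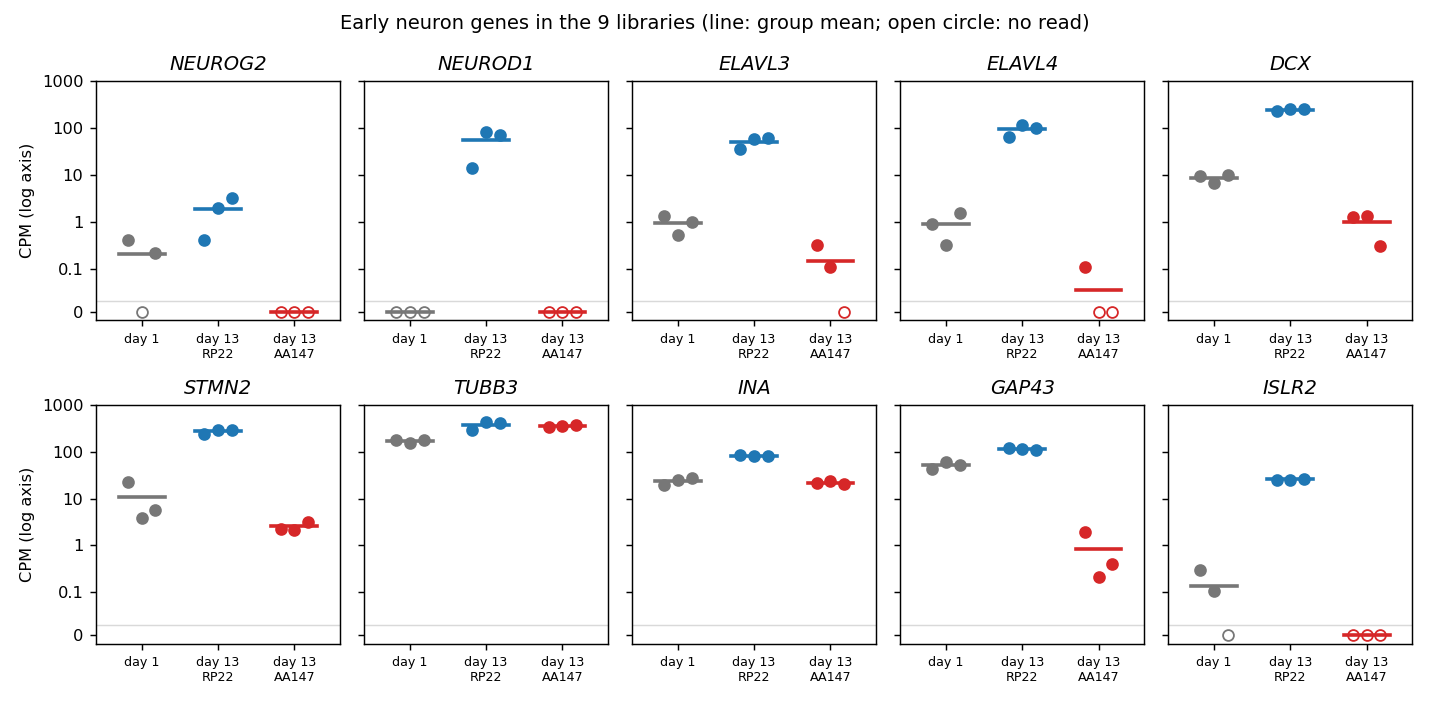
CPM (reads scaled to the library total, log axis with 0 set apart) of each early neuron gene in the 9 libraries, replicates 1 to 3 from left to right. Points are libraries, lines are group means, and open circles are libraries without a read; with AA147, TUBB3 stayed at 341 to 365 CPM while NEUROD1, NEUROG2 and ISLR2 had no read.

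Each gene was compared between groups with edgeR's quasi-likelihood test on the counts (TMM normalization, which scales for composition, and a Benjamini-Hochberg adjusted p under 0.05 over all genes tested, n = 3 per group). Between AA147 and RP22 at day 13, 9 of the 10 genes passed the count filter, and 8 of them were lower with AA147 and 1, TUBB3, was higher. Across all 14293 genes tested, 32.2% were called lower and 29.8% higher. The upward share of those calls, 48.1%, was 18.2% with library totals in place of TMM, which moved the median of all genes by more than 0.1 (from -0.03 to -0.49, log2). The filter asked for about 1.05 CPM in 3 libraries, and only STMN2, TUBB3 and INA met it in the AA147 group as well. The other 6 (ELAVL3, ELAVL4, NEUROD1, ISLR2, DCX and GAP43) passed through their RP22 reads alone, so they had to differ, and the count of 8 is a description. The same holds for the median log2 fold change of the 9, which was -7.53, or -7.48 with the 2 genes without AA147 reads set at their bound, against -0.03 for all genes. By CPM, all 3 AA147 libraries lay below all 3 RP22 libraries for 9 of the 10 genes, against 63.7% of all genes tested, and for 0 of the 10 they lay above, against 14.8%. Without RP22 replicate 1, all 10 genes passed the filter, 9 lower and 1 higher. The log2 fold changes were then -7.54 for DCX, -6.31 for STMN2, -8.11 for ELAVL3, -6.53 for GAP43, -1.37 for INA and 0.24 for TUBB3, and the edgeR adjusted p was 5.2e-08 for ELAVL4, 1.4e-06 for ISLR2 and 2.2e-07 for NEUROD1.

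Between RP22 at day 13 and day 1, the same filter passed 9 genes, and all 9 were higher with RP22. Of the 14558 genes tested there, 36.6% were called higher and 35.2% lower. ELAVL3, ELAVL4, NEUROD1 and ISLR2 passed through their RP22 reads alone and had to differ, while DCX, STMN2, TUBB3, GAP43 and INA met the filter at day 1 as well. As a description, the median of the 9 was 4.72 (log2), against 0.02 for all genes. All 10 genes had CPM ranges above day 1 without overlap, against 42.3% of genes tested, and 0 lay below (34.3%). NEUROG2, not among the genes tested, did so by library size alone, with 4 reads in both RP22 replicate 1 and day 1 replicate 1 (0.415 and 0.402 CPM). Without RP22 replicate 1 the count was 10 of 10, with log2 fold changes of 4.74 for DCX, 4.58 for STMN2, 5.82 for ELAVL3, 6.74 for ELAVL4, 7.27 for ISLR2, 1.62 for INA, 1.19 for TUBB3 and 0.98 for GAP43.

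Between AA147 at day 13 and day 1, 5 genes passed the filter. DCX and GAP43 were lower (2, against 40.4% of 13761 genes), TUBB3 was higher (1, against 38.7%), and STMN2 and INA did not pass the test. DCX and GAP43 passed the filter here through their day 1 reads alone. Here the upward share of calls over all genes was 48.9%, or 34.3% with library totals. By CPM, 5 genes lay below day 1 without overlap (DCX, STMN2, ELAVL3, ELAVL4 and GAP43, against 55.4% of genes tested) and TUBB3 lay above it (29.2%). For STMN2 that order does not hold once TMM scaling is applied. The last 2 comparisons share the day 1 libraries, and the first shares a day 13 group with each of them. The plot of log2 fold changes shows the 3 comparisons side by side.

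**Figure D2:**
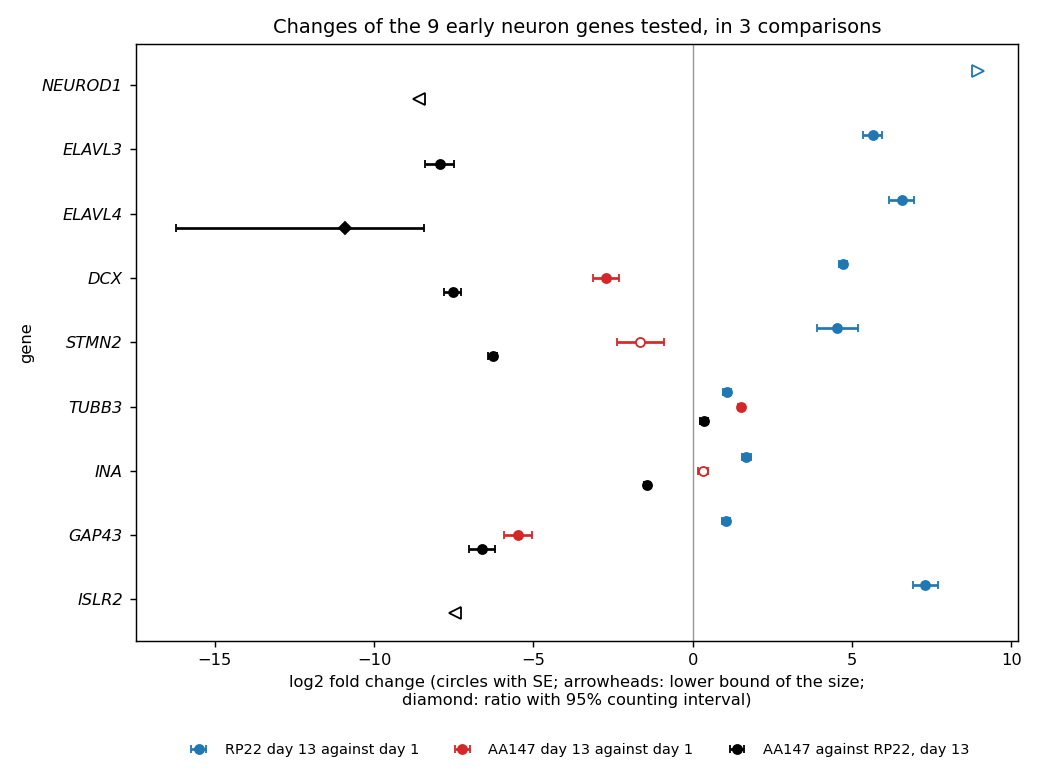
Log2 fold changes of the 9 early neuron genes that passed the count filter in at least 1 comparison, from edgeR. Circles carry SE bars and are filled where the adjusted p was under 0.05, arrowheads are lower bounds for genes without reads in 1 group, and the diamond is the ELAVL4 ratio with its 95% counting interval; the black symbols (AA147 against RP22) lie left of 0 for all but TUBB3.

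Of the proneural factors, NEUROD1 had 133, 760 and 712 reads in the 3 RP22 libraries and 0 in each of the day 1 and AA147 libraries. Its reads were thus found in the RP22 libraries alone, and RP22 replicate 1 was far below the other replicates. It was at least 494-fold higher with RP22 than at day 1 (edgeR adjusted p = 0.0079) and at least 383-fold lower with AA147 than with RP22 (edgeR adjusted p = 0.024), both against a floor of 3 reads over a group's libraries. The adjusted p of the second comparison was 2.2e-07 without RP22 replicate 1, 0.062 without replicate 2 and 0.089 without replicate 3. The call thus ended when either of the 2 libraries with more NEUROD1 reads was left out. It also ended with limma-voom (adjusted p = 0.1) and without the count filter (0.058).

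NEUROG2 was the lowest of the 10 genes in the RP22 libraries. Its reads were 4, 0 and 2 at day 1, 4, 18 and 32 with RP22, and 0, 0 and 0 with AA147. RP22 replicate 1 was thus no higher in reads than day 1 replicate 1. NEUROG2 did not pass the count filter in any comparison. Against the floor of 3 reads it was at least 12.9-fold lower with AA147 than with RP22. Without the filter its log2 fold change was 2.96 ± 0.907 (SE) for RP22 against day 1 (edgeR adjusted p = 0.02), and its adjusted p was 0.012 for AA147 against RP22.

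Of the 11 factors on the proneural list, 5 passed the filter for AA147 against RP22 (NEUROG1, NEUROD1, NEUROD4, NHLH1 and NHLH2). All 5 passed through their RP22 reads alone, so that they were called lower with AA147, against 32.2% of all genes, is a description. The same 5 were called higher with RP22 than at day 1 (36.6% of all genes), 4 of them with the filter met by RP22 alone. Without RP22 replicate 1 the counts were 6 lower and 6 higher of 6. NHLH1, a factor of newly made neurons, had the highest RPKM of the list, a mean of 22.8 with RP22, against 18.4 for NEUROD1 and 0.802 for NEUROG2. Its reads were 10, 6 and 11 at day 1, 255, 719 and 726 with RP22, and 3, 2 and 1 with AA147. NEUROG1, a close relative of NEUROG2, had 231 reads with RP22 and 0 in the other groups, at least 71-fold more than at day 1. NEUROD6 and ATOH1 had no read with RP22.

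The Hu proteins ELAVL3 and ELAVL4 were low at day 1, high with RP22 and nearly without reads with AA147. ELAVL4 had 9, 3 and 14 reads at day 1, 614, 1060 and 1029 with RP22, and 1, 0 and 0 with AA147. No 2 of these 3 groups overlapped. It rose with RP22 by a log2 fold change of 6.56 ± 0.387 (edgeR adjusted p = 1.2e-05). The ratio of RP22 to AA147 reads was 1940, with a 95% counting interval of 347 to 76600 (edgeR adjusted p = 1.1e-05).

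ELAVL3 had 13, 5 and 9 reads at day 1, 340, 535 and 612 with RP22, and 3, 1 and 0 with AA147. These are rounded, since some of its reads were deposited as fractions. It rose with RP22 by 5.64 ± 0.312 (log2, edgeR adjusted p = 4.3e-06) and was lower with AA147 than with RP22 by a log2 fold change of -7.94 ± 0.459 (adjusted p = 1.8e-05). With 4 AA147 reads, 3 of them in replicate 1, this SE is smaller than counting error allows, and the value was -9.20 without AA147 replicate 1. Against day 1 neither Hu gene passed the filter, and without it both were lower with AA147, ELAVL3 by -2.23 (edgeR adjusted p = 0.029) and ELAVL4 by -3.89 (0.0063).

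The other 2 ELAVL genes kept reads with AA147. ELAVL1, which is made in most cell types, had a mean RPKM of 28.8 at day 1, 27.1 with RP22 and 18.1 with AA147. It was called lower than at day 1 with AA147 (log2 -0.23 ± 0.0672, edgeR adjusted p = 0.0093, or -0.67 with library totals alone) and with RP22 (-0.18 ± 0.0689, adjusted p = 0.04). The second call ended when RP22 replicate 1 was left out (adjusted p = 0.055) or library totals replaced TMM (0.34). It did not pass the test between the compounds (log2 -0.13, edgeR adjusted p = 0.11), although with library totals alone it was called lower (-0.59). ELAVL2, used in neurons and germ cells, was higher than at day 1 with RP22 (2.92 ± 0.237) and also with AA147 (2.14 ± 0.196). It was lower with AA147 than with RP22 by -0.86 ± 0.263 (edgeR adjusted p = 0.029). In the AA147 libraries the mean RPKM was 8.06 for ELAVL2 and 0.0417 and 0.00967 for ELAVL3 and ELAVL4.

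DCX, the microtubule protein of migrating young neurons, had 92, 65 and 91 reads at day 1, 2172, 2309 and 2603 with RP22, and 12, 12 and 3 with AA147. The 3 groups did not overlap, and the RP22 replicates were close to each other. It rose with RP22 by 4.72 ± 0.132 (log2, edgeR adjusted p = 1.5e-07). With AA147 it was lower than with RP22 by -7.53 ± 0.262 (adjusted p = 3e-06) and lower than at day 1 by -2.73 ± 0.402 (adjusted p = 0.00015). DCX thus moved from day 1 in opposite directions with the 2 compounds, and the test of that difference is the comparison of AA147 with RP22.

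The related kinases DCLK1 and DCLK2 did not share that pattern. DCLK1 was lower than at day 1 with RP22 (-1.99 ± 0.108) and more so with AA147 (-4.34 ± 0.127). DCLK2 was higher than at day 1 with RP22 (4.69 ± 0.302) and AA147 (6.18 ± 0.19), and higher with AA147 than with RP22 by 1.41 ± 0.184 (edgeR adjusted p = 0.00052). By mean RPKM, DCLK2 went from 0.242 at day 1 to 7.81 with RP22 and 15.1 with AA147, while DCX went from 0.994 to 26.6 and 0.116. DCLK3 had few reads, in the order of DCX, with 37 at day 1, 59 with RP22 and 5 with AA147. Its RP22 and day 1 libraries overlapped, and it did not pass the filter between the compounds. Without RP22 replicate 1 it was lower with AA147 by -3.29 (log2, edgeR adjusted p = 0.0015).

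STMN2, which regulates microtubule growth in the axon, had 229, 36 and 53 reads at day 1, 2348, 2656 and 2923 with RP22, and 21, 20 and 32 with AA147. Day 1 replicate 1 held 229 of the 318 day 1 reads, and the groups still did not overlap in CPM. For AA147 against day 1 this rests on library totals. AA147 replicate 3 had 3.18 CPM and day 1 replicate 2 had 3.79, with TMM factors of 0.79 and 1.08. Dividing by those factors puts that AA147 library above that day 1 library. STMN2 rose with RP22 by 4.54 ± 0.638 (log2, edgeR adjusted p = 0.0011), or 5.73 without day 1 replicate 1. With AA147 it was lower than with RP22 by -6.28 ± 0.14 (adjusted p = 1.1e-06). Its log2 fold change for AA147 against day 1 was -1.65 ± 0.739 (adjusted p = 0.079), -0.46 without day 1 replicate 1, and -2.06 without day 1 replicate 2 (adjusted p = 0.019).

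All 4 stathmins were lower with AA147 than with RP22 (32.2% of all genes were), also when RP22 replicate 1 was left out. STMN4 passed the filter through RP22 reads alone, so it had to differ, and its part in the count is a description. STMN1, a stathmin of dividing cells, had the highest RPKM, 296 at day 1, 361 with RP22 and 147 with AA147, and was lower with AA147 by -0.88 ± 0.0906 (log2). STMN4, like STMN2 a neuronal stathmin, had 6 reads at day 1, 1248 with RP22 and 3 with AA147. It rose with RP22 by 7.50 ± 0.344, and the ratio of RP22 to AA147 reads was 298 (95% counting interval 102 to 1450). STMN3 was lower than at day 1 with RP22 (-0.43 ± 0.131) as well as with AA147 (-2.05 ± 0.148), although with library totals alone the first did not pass the test (-0.32, adjusted p = 0.068).

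TUBB3, the beta tubulin typical of neurons, was the most abundant of the 10 genes in each group by RPKM. Its reads were 1719, 1485 and 1607 at day 1, 2786, 4032 and 4112 with RP22, and 3173, 3190 and 3665 with AA147. Both day 13 groups lay above day 1, and the 2 day 13 groups overlapped, with the AA147 libraries between RP22 replicate 1 and the other RP22 replicates in CPM. TUBB3 rose from day 1 by 1.06 ± 0.129 with RP22 (log2, edgeR adjusted p = 0.00015) and by 1.50 ± 0.0762 with AA147 (adjusted p = 1e-07).

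The difference between the compounds in TUBB3 was small and depended on scaling. Its log2 fold change for AA147 against RP22 was 0.36 ± 0.127 (95% interval 0.06 to 0.65, edgeR adjusted p = 0.039). With library totals alone it was -0.10 (adjusted p = 0.54). Of the 6 libraries, leaving out RP22 replicate 3 or any AA147 replicate also ended the call (adjusted p from 0.051 to 0.11), and leaving out RP22 replicate 1 gave 0.24 (adjusted p = 0.015). The mean RPKM was 211 ± 43.6 with RP22 and 198 ± 6.76 with AA147 (SD, n = 3). TUBB3 reads can be shared with a readthrough locus on the same strand that overlaps it, and how such reads were counted is not given in the sources used here.

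Among the 8 beta tubulins, 7 passed the filter for AA147 against RP22. Of these, 3 were higher (29.8% of all genes were), TUBB2A, TUBB3 and TUBB6. With library totals alone only TUBB6 was higher, and 4 were lower in place of 1. In that setting 10424 of all 14293 genes were called, and only 18.2% of those calls were upward. Leaving out RP22 replicate 1 gave 3 higher and 2 lower of 8. TUBB6, a broadly made isotype, differed most, by 1.72 ± 0.115 (log2, edgeR adjusted p = 1.8e-05), with mean RPKM of 44.0 at day 1, 72.7 with RP22 and 176 with AA147. TUBB4A, an isotype of brain, was lower by -1.82 ± 0.234. TUBB had the highest RPKM, 866 at day 1, 579 with RP22 and 412 with AA147, and did not pass the test between the compounds (0.04 ± 0.075). The beta tubulins are similar in sequence, and how shared reads were divided among them is not given.

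INA, the intermediate filament protein alpha-internexin, was the only one of the 10 genes besides TUBB3 with over 100 reads in each AA147 library. It had 193, 237 and 253 reads at day 1, 823, 742 and 817 with RP22, and 200, 221 and 205 with AA147. The AA147 and day 1 libraries overlapped, and the RP22 libraries lay above both. INA rose with RP22 by 1.68 ± 0.132 (log2, edgeR adjusted p = 1.4e-05) and was lower with AA147 than with RP22 by -1.45 ± 0.0929 (adjusted p = 1.6e-05). Against day 1 its value with AA147 was 0.32 ± 0.146 (95% interval -0.01 to 0.65, adjusted p = 0.069), and -0.12 with library totals alone, so no direction is given.

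Of the 5 neuronal filament genes, 4 were lower with AA147 than with RP22 (32.2% of all genes were), with and without RP22 replicate 1. NEFL and NEFM passed the filter there through RP22 reads alone, and for AA147 against day 1 through day 1 reads alone. PRPH passed it for AA147 against day 1 through AA147 reads alone. In those comparisons these genes had to differ, and their part in the count is a description. NEFH did not pass the test (-0.29, edgeR adjusted p = 0.24) and was called lower with library totals alone (-0.75). NEFM, the medium neurofilament and the filament gene with the highest RPKM, had 1600, 875 and 1090 reads at day 1, 5302, 3182 and 3739 with RP22, and 21, 16 and 6 with AA147. It was lower with AA147 than with RP22 by -7.67 ± 0.419 (log2, edgeR adjusted p = 4e-05) and than at day 1 by -5.91 ± 0.373. NEFL, the light neurofilament, followed it (-7.75 ± 0.437 and -5.56 ± 0.28). PRPH, the peripheral neuron filament, differed in kind, since with AA147 it was lower than with RP22 (-2.83 ± 0.333) and higher than at day 1 (4.87 ± 0.35), with 128, 81 and 78 reads. Unlike the proneural genes, NEFM, NEFL and PRPH had their most RP22 reads in replicate 1. VIM, the filament of mesenchymal and progenitor cells, was higher with AA147 than with RP22 by 0.77 ± 0.115.

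GAP43, the growth cone protein that carries signals to the membrane skeleton, had 432, 569 and 473 reads at day 1, 1161, 1052 and 1104 with RP22, and 18, 2 and 4 with AA147. The groups did not overlap, and AA147 replicate 1 held 18 of the 24 AA147 reads. GAP43 rose with RP22 by 1.05 ± 0.127 (log2, edgeR adjusted p = 0.00013). With AA147 it was lower than with RP22 by -6.61 ± 0.415 (adjusted p = 5e-05) and lower than at day 1 by -5.48 ± 0.433 (adjusted p = 1.1e-05). Without AA147 replicate 1 the values were -8.00 and -6.85. GAP43 had the highest day 1 RPKM after TUBB3, 26.2, and a mean of 0.451 with AA147.

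Differences were small for BASP1, MARCKS and MARCKSL1, membrane proteins of similar use in the growth cone. BASP1 did not pass the test between the compounds (0.16 ± 0.107, log2). MARCKS was called higher with AA147 (0.22 ± 0.0699), a direction that turned with library totals alone (-0.23). MARCKSL1, with the highest RPKM of the 4 (348 with RP22), was lower by -0.39 ± 0.0944.

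ISLR2, a neuronal membrane protein with leucine-rich repeats that acts in axon extension, had 3, 1 and 0 reads at day 1, 244, 230 and 269 with RP22, and 0, 0 and 0 with AA147. RP22 replicate 1 was as high as the others. ISLR2 rose with RP22 by 7.30 ± 0.396 (log2, edgeR adjusted p = 2.7e-06), or 8.50 without day 1 replicate 1, which held 3 of the 4 day 1 reads. It was at least 178-fold lower with AA147 than with RP22 (adjusted p = 1e-05). Its neighbour in sequence, ISLR, had 8 reads at day 1, 271 with RP22 and 4 with AA147, and was lower with AA147 by -5.52 ± 1.21. Like ISLR2, it passed the filter through RP22 reads alone. ISLR2 overlaps a noncoding RNA gene on the opposite strand, NEUROG2 an antisense RNA, and ELAVL3 and NEUROD1 each a protein-coding gene on the same strand. Whether counting used the strand is not given, so reads of such partners cannot be told apart.

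**Figure D3:**
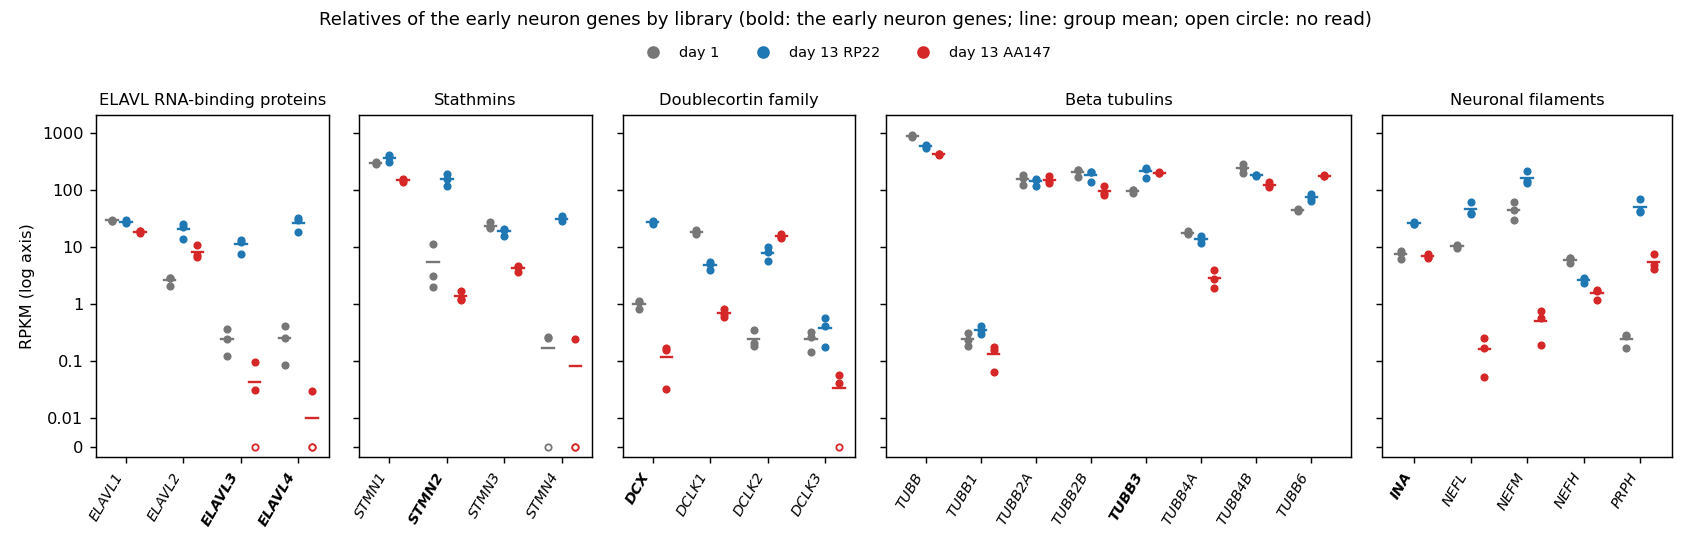
RPKM (log axis with 0 set apart) of the early neuron genes, in bold, and of their relatives in each of the 9 libraries, with lines at group means and open circles for libraries without a read. ELAVL1, STMN1, TUBB and the other broadly made relatives stay within about one step of the axis in all groups, while ELAVL3, ELAVL4, STMN4, NEFL and NEFM lie below 1 RPKM with AA147.

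Ranked by RPKM, TUBB3 (94.6), GAP43 (26.2) and INA (7.47) led at day 1, followed by STMN2 (5.33), whose range overlapped that of INA. The other 6 genes were at 0.994 or below. With RP22, TUBB3 (211) and STMN2 (153) led with overlapping ranges, GAP43 (56.4) came next, and DCX (26.6), ELAVL4 (26.3), INA (25.4), NEUROD1 (18.4) and ELAVL3 (10.9) each overlapped the next in order. ISLR2 (5.74) and NEUROG2 (0.802) were lowest and apart. With AA147, TUBB3 (198) and INA (6.82) were followed by STMN2 (1.35), and each of these ranges stood clear of the next. The remaining 7 genes were at 0.451 or below. The count to RPKM ratio of STMN2 varied 1.39-fold between libraries, so its RPKM is less exact than its count.

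Within the RP22 group the 10 genes split by how far replicate 1 fell below the other replicates. As a ratio of its CPM to the mean of replicates 2 and 3, NEUROG2 (0.163) and NEUROD1 (0.182) were lowest. ELAVL4 (0.592), ELAVL3 (0.599) and TUBB3 (0.689) followed, then STMN2 (0.849) and DCX (0.893). ISLR2 (0.988), INA (1.07) and GAP43 (1.09) were near 1. The proneural genes were thus low in the library in which smooth muscle and mesenchyme markers were high, while INA, GAP43 and ISLR2 were not. The part of those other cells in this split was not tested.

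**Figure D4:**
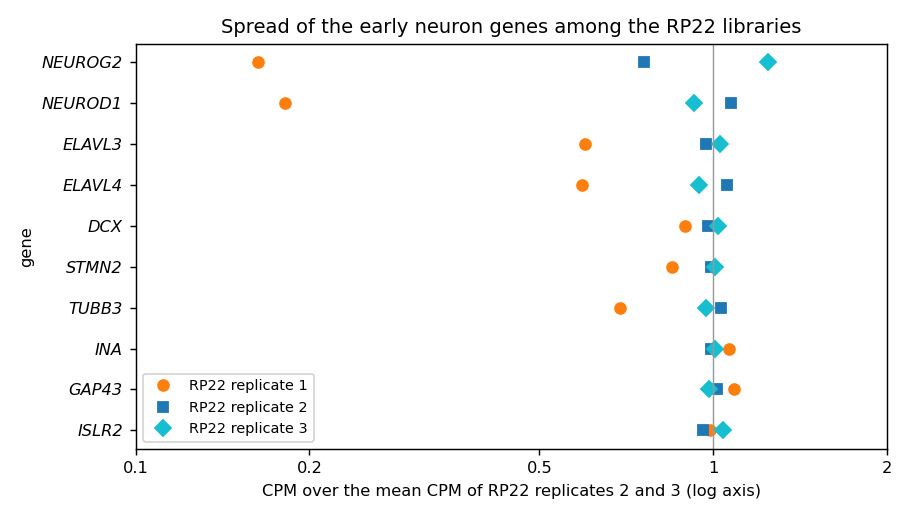
CPM of each early neuron gene in the 3 RP22 libraries, divided by the mean CPM of replicates 2 and 3 (log axis). Circles are replicate 1, squares replicate 2 and diamonds replicate 3; replicate 1 is at 0.163 for NEUROG2 and 0.182 for NEUROD1 and close to 1 for INA, GAP43 and ISLR2.

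Other genes of postmitotic neurons, from a list of 24 of which 23 were in the table, were also compared between the compounds. Of 21 that passed the filter, 20 were lower with AA147 (32.2% of all genes were) and 1 was higher (29.8%). Of the 21, 10 passed through their RP22 reads alone and 11 met the filter in both groups. The 21 had a median log2 fold change of -4.18 against -0.03 for all genes, as a description. The counts were 1 and 20 with library totals alone, where 18.2% of all calls were upward, and 1 and 21 of 22 without RP22 replicate 1. CNTN2, an axonal adhesion protein, had 52 reads at day 1, 6898 with RP22 and 9 with AA147. KIF5C, a kinesin of axonal transport, had 5815 reads at day 1, 5875 with RP22 and 95 with AA147. The exception was DPYSL3, a cytoskeletal protein made in neurons and many other cells and the gene with the highest RPKM of the list, which was higher with AA147 by 1.88 ± 0.129 (edgeR adjusted p = 2e-05). Against day 1 the list was more mixed. With RP22, 12 of 21 were higher and 3 lower (36.6% and 35.2% of all genes were). With AA147, 3 of 18 were higher and 13 lower (38.7% and 40.4%). Of the 21, 3 passed the filter through RP22 reads alone, and of the 18, 7 through day 1 reads alone. These had to differ, so the counts are a description.

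Genes of particular neuron types did not all go one way. Of 12 tested, 8 were lower with AA147 than with RP22 (32.2% of all genes were) and 3 were higher (29.8%). These counts were the same with library totals alone, where 18.2% of all calls were upward, or 9 and 3 of 13 without RP22 replicate 1. Through RP22 reads alone 8 of the 12 passed the filter, and through AA147 reads alone 2. The lower genes included SLC17A6, the vesicular glutamate transporter (659 reads with RP22 and 1 with AA147), and the sensory neuron factor POU4F1 (1913 and 2). The 3 higher genes were SLC18A3, the vesicular acetylcholine transporter, CHAT, which makes acetylcholine, and PHOX2A, a factor of autonomic neurons. SLC18A3, with the highest RPKM of the list, had 0, 1 and 0 reads at day 1, 121, 74 and 60 with RP22, and 752, 831 and 535 with AA147. It was higher with AA147 than with RP22 by 3.53 ± 0.343 (log2, edgeR adjusted p = 0.00032). ISL1 did not pass the test between the compounds (-0.19 ± 0.286) and was higher than at day 1 with both.

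Markers of other cells moved with the neuron genes. Of the 8 neural progenitor markers tested, 6 were lower with AA147 than with RP22 (32.2% of all genes were). NES and SOX9 did not pass the test. Without RP22 replicate 1, 8 of 10 were lower, with a median log2 fold change of -6.38 in place of -3.72. Of the 8, 3 had passed the filter through RP22 reads alone. SOX2, also a pluripotency gene with 21546 reads at day 1, had 2801 with RP22 and 13 with AA147. PAX6 had 2772 and 47, and FABP7 and HES5 were at 0 with AA147. The summed CPM of the 10 progenitor markers was 873 to 1401 with RP22 and 619 to 842 with AA147. Of 9 neural crest and glia markers tested, 8 were lower with AA147 (32.2% of all genes were), among them SOX10 (2265 reads and 1). FOXD3 and OLIG2 were at 0 with AA147. Of the 9, 6 passed the filter through RP22 reads alone, and the count was the same without RP22 replicate 1. The summed CPM of those 10 genes was 656 to 1159 with RP22 and 178 to 195 with AA147. Of 7 pluripotent cell markers tested, SOX2 among them, 6 were lower with AA147 than with RP22 (32.2% of all genes were). The other, ZFP42, was higher (29.8%), and did not pass with library totals alone. Of the 7, 4 passed the filter through RP22 reads alone. POU5F1 had 698 reads with RP22 and 10 with AA147, and LIN28A 6445 and 251.

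Some of the 10 genes are also made in endocrine cells and the retina. Of the 9 endocrine markers, 3 were tested between the compounds. All 3 were lower with AA147 (32.2% of all genes were), with and without RP22 replicate 1. CHGA, a protein of secretory granules in endocrine cells and neurons, had 1470 reads at day 1, 446 with RP22 and 5 with AA147, and was lower with AA147 than with RP22 by -5.91 ± 0.352 (log2, edgeR adjusted p = 1.1e-05). CHGB, its relative, had 373, 756 and 74 reads and was lower by -2.88 ± 0.309 (adjusted p = 0.00018). SST, a hormone that neurons also make, had 2246 reads with RP22, 26 with AA147 and 1 at day 1. CHGA and SST passed the filter through RP22 reads alone. The factor PAX4 and the hormones INS and GCG had no read in any library, and the factor PDX1 had 1. The summed CPM of the 9 endocrine markers was 115 to 122 with RP22 and 2.89 to 5.05 with AA147. None of the 4 retina markers was tested, and RAX, also a forebrain factor, had 170 reads with RP22. Of 8 smooth muscle and mesenchyme markers, 6 were higher with AA147 than with RP22 (29.8% of all genes were) and 0 lower (32.2%). These counts were 7 and 0 without RP22 replicate 1, and 5 and 0 by library totals. The summed level of these markers was 7481 to 21497 CPM with RP22. The parts of these other cells in the values of the 10 genes were not tested.

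Genes that hold neuronal transcripts down were tested as a list of 9. Of these, 6 were lower with AA147 than with RP22 (32.2% of all genes were) and 1, RCOR1, was higher (29.8%). The counts were the same without RP22 replicate 1, and were 8 lower and 0 higher with library totals alone. In that last setting 10424 of all 14293 genes were called, and only 18.2% of those calls were upward. REST, the repressor of neuronal genes in other cells, had 3685 reads at day 1, 3457 with RP22 and 2705 with AA147. It did not pass the test between the compounds (0.13 ± 0.07, edgeR adjusted p = 0.14), and was called lower with library totals alone (-0.33). PTBP1, a splicing repressor with the highest RPKM of the list, likewise did not pass (0.03 ± 0.0727) and was lower with library totals alone (-0.42). PTBP2, its neuronal relative, was lower by -1.72 ± 0.232. RCOR1, a partner of REST, was higher by 0.50 ± 0.0881 and did not pass with library totals alone (0.04).

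Likeness to the 10 genes was measured as Pearson's r over the 9 libraries, among 14165 other genes with at least 100 reads. It was taken between a gene's log2 CPM and the mean standardised profile of the 10. Unlike the CPM given elsewhere, these were TMM scaled, with 0.5 added before the log. These r values describe 3 groups of libraries more than 9 independent points. The 10 most alike were NHLH1 (0.997), T (0.996), LMX1A (0.995), WNT8B (0.995), TNFRSF1B, TAGLN3, THSD7B, MAP6, MYT1 and SOX17 (0.993). NHLH1, TAGLN3, MAP6 and MYT1 are known neuronal genes, whereas T and SOX17 are known as mesoderm and endoderm factors. WNT8B, a ligand of the developing forebrain, had 285, 1039 and 1020 reads with RP22 and 0 with AA147. T had 42, 84 and 105 reads with RP22, 1 at day 1 and 0 with AA147. Among the 10 genes themselves, the r of each with the mean of the others was 0.994 for ELAVL3 and at least 0.873 for all but GAP43 (0.603) and TUBB3 (0.0447).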

How the data were processed

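The authors deposited expected counts per gene and RPKM for each library. The build, GRCh37.p13, is from the submitters' processing notes, and the aligner, the counter and its strand setting were not given in the sources used here. The count table held 27772 rows. A floor of 0.05 (counts) or 0.002 (RPKM) was read as 0, fractions were rounded, and the 42 symbols on 2 rows were summed. Each comparison was fitted on its own 6 libraries in R 4.3.3 with edgeR 4.0.16 (filterByExpr, TMM, robust quasi-likelihood F test, Benjamini-Hochberg, threshold 0.05), with group as the only term. The SE is the absolute log2 fold change over the square root of F. Folds against a group without reads are lower bounds from 3 reads over its 3 libraries, and ratios with 1 to 3 reads carry a 95% counting interval. Both cover counting error only. The procedure was tested on simulated data.

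Alternatives were DESeq2 1.42.0, limma-voom and limma 3.58.1 on log2(RPKM + 0.1 or 1), other scalings, no filter, all 9 libraries, a replicate block and left-out libraries. The list counts under library totals and those that leave out RP22 replicate 1 were added after seeing the data. The 10 genes and the gene lists were chosen with earlier results of these data known. From each list, the gene with the highest RPKM and those called against most of the list are named, along with the 10 genes most alike in profile, and further genes named were chosen after their values were seen. Promoter windows came from RefSeq and hold the 250 bases before each start. Some genes that meet the naming rule are left out of the text.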

Additional observations from a re-analysis of the deposited data

Results flagged for a closer look

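DCX and GAP43 were each higher than at day 1 in all RP22 libraries and lower than at day 1 in all AA147 libraries. By edgeR's quasi-likelihood test of AA147 against RP22, the difference was -7.53 (log2, adjusted p = 3e-06) for DCX and -6.61 (adjusted p = 5e-05) for GAP43. Both were flagged because they were called between the compounds and in opposite directions against day 1, so these p-values are part of the selection. Between the compounds both passed the filter through RP22 reads alone, and for AA147 against day 1 through day 1 reads alone. That 6 of 6 libraries were in that order is thus a description.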

How the results depend on the processing

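Between AA147 and RP22, the calls over all genes (4265 higher, 4600 lower) became 1897 and 8527 with library totals alone, 1898 and 8505 with limma on log2(RPKM + 0.1), and 1898 and 8500 with log2(RPKM + 1). The share of calls upward went from 48.1% to 18.2% with library totals, and the median change of all genes from -0.03 to -0.49 (log2). For AA147 against day 1 that share went from 48.9% to 34.3%. Under these 3 settings the count of early neuron genes higher with AA147 than with RP22 was 0, since TUBB3 turned to -0.10, -0.0733 and -0.0731, and INA against day 1 turned to -0.12, -0.12 and -0.11 with AA147. Leaving out 1 library gave 0 to 1 early neuron genes higher and 7 to 9 lower for AA147 against RP22, 9 to 10 higher for RP22 against day 1, and 1 to 2 higher and 2 to 3 lower for AA147 against day 1. In the last comparison 4 were lower without the count filter, and 2 were higher and 4 lower with all 9 libraries in one fit. STMN2 there passed with library totals (adjusted p = 0.034), DESeq2 (0.0059) and both RPKM fits (0.03 and 0.044). Of the refits of single early neuron genes, 347 kept direction and call, 8 lost the call, 7 gained it and 6 turned.

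Same-numbered AA147 and RP22 replicates deviated together with r of 0.223, 0.172 and 0.0836, and unlike-numbered ones with r from -0.237 to 0.152. In the comparisons with day 1, r was from -0.0601 to 0.067 for same numbers and from -0.0994 to 0.0673 for unlike numbers. These r do not settle whether a number marks a shared experiment of the 2 compounds, and the labels do not say so. With a replicate block the counts of early neuron genes stayed at 1 higher and 8 lower, 9 higher, and 1 higher and 2 lower, with 4126 and 4548 genes called between the compounds. Few reads limit the sizes: with 0 to 4 reads a group, fold changes of NEUROD1, ISLR2, ELAVL3 and ELAVL4 moved by over 1.5 times between settings.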
